A study of Mus musculus with 2 samples.

Results

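The forkhead transcription factors were examined in messenger RNA from undifferentiated mouse embryonic stem cells (mESCs). Members were the genes whose symbol in the count table is Fox followed by 1 letter and a number, 43 of the 22556 genes listed. All cells were of 1 line, iXist-ChrX-Dom, a female XX line from a Dom/129S by Cast cross, in which a TetOn promoter stands in place of the endogenous Xist promoter on the Dom/129S allele. The cells were untreated (0 h), so Xist had not been induced, and had been grown in foetal calf serum with LIF, the cytokine that holds mESCs undifferentiated. Feeder fibroblasts were removed by pre-plating. In the study these libraries gave each gene's initial expression level, before Xist acts. There are 2 replicates and 1 group, so the design holds no comparison between conditions. The labels do not say that the replicates came from separate cultures, and p-values between them cover differences between these 2 libraries, which may be technical.

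Forkhead proteins share a winged-helix DNA-binding domain, and most recognise sites built around the core letters GTAAACA. Several are pioneer factors that can bind nucleosomal DNA, and the family as a whole is known for specifying tissues in the embryo. In the pluripotent epiblast, Foxd3 is needed to maintain the stem cell population and Foxh1 brings SMAD proteins to the targets of Nodal signalling. The FOXO, FOXK and FOXJ subfamilies, by contrast, include members used in many cell types.

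Replicate 1 held 23716499 counts and replicate 2 held 20275749. Where a gene had no count, its true count could still be as high as 3, which is 0.126 CPM (counts per 1000000) in replicate 1 and 0.148 CPM in replicate 2. This limit and the intervals given here cover counting error only. All 8 ES cell markers of the list used were above 1 TPM (transcripts per 1000000), with a median of 168 TPM. The 8 fibroblast markers had a median of 0.113 TPM, 2 of them above 1 TPM (Fbn1 and Thy1), and Col1a1, Col1a2, Col3a1, Lum and Dcn held at most 9 counts in a replicate. Above 1 TPM were also 3 of 6 primitive endoderm markers, 1 of 4 neural precursor markers (Nes) and 2 of 5 mesoderm markers (Eomes and T). The cell type label reads mESC to NPC. Of the 4 neural precursor markers, Sox1 and Olig2 had 0 counts in both replicates, Pax6 had 46 and 23 counts and Nes 181 and 136. The replicates differed well beyond counting error, with lower values of GC-rich transcripts in replicate 2. Because these are bulk libraries, fewer cells with a transcript and less RNA per cell cannot be told apart.

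Promoters are shown for 4 members that stand for the patterns described here. Foxk2 had the most CG dinucleotides among the 26 members with a window, and Foxd3 was the intron-free member with the highest level. Foxr2 was an expressed X-linked member with hardly any CG, and Foxl2 had a CG-rich window and no counts. Each window runs from 250 bases before the RefSeq start of the gene to 50 bases after it, 5′ to 3′, on build GRCm38.p6, with CG dinucleotides in capitals. All 4 genes lie on the plus strand, and the windows are chr11:121259737-121260036 (Foxk2), chr4:99656049-99656348 (Foxd3), chrX:153118538-153118837 (Foxr2) and chr9:98955357-98955656 (Foxl2).
Foxk2: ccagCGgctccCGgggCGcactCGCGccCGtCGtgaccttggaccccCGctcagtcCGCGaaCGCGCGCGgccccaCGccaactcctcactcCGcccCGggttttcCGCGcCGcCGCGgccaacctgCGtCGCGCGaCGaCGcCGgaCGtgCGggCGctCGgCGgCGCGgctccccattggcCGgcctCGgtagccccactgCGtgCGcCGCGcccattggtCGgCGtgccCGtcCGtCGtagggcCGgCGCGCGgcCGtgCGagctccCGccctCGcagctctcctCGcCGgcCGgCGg
Foxd3: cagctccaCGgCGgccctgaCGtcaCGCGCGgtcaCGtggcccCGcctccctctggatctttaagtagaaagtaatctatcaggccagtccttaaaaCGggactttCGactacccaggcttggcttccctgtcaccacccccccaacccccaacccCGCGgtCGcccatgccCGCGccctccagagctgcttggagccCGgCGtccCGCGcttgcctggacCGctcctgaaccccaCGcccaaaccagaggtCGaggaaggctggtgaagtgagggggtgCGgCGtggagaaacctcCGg
Foxr2: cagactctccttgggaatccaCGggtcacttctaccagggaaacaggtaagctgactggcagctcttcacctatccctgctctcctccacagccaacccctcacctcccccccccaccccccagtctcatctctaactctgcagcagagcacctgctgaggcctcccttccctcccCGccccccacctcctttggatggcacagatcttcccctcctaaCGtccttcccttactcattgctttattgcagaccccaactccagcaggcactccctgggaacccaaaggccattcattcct
Foxl2: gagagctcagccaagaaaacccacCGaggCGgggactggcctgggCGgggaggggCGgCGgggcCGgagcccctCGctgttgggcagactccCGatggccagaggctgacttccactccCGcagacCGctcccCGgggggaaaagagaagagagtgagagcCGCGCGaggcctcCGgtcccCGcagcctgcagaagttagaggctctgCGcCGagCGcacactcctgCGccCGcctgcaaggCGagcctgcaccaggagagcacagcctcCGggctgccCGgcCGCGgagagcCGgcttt

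Forkhead expression was carried by a small number of genes. TPM was computed with the exonic length of each gene and averaged over both replicates, and 18 of the 43 members (41.9%) reached 1 TPM, against 55.3% of all genes with an exonic length. A level of 10 TPM was reached by 10 members, against 34.1% of all genes. At the other end, 11 members (25.6%) had 0 counts in both replicates, against 21.1% of all genes. A further 5 members had between 1 and 9 counts in total, and 9 had at least 10 counts but less than 1 TPM. The family summed to 360 TPM in replicate 1 and 406 TPM in replicate 2 (383 ± 32.2, SD, n = 2). The 10 highest members held 93.4% of the family's counts in replicate 1 and 95.9% in replicate 2, and a gap separated the tenth, Foxo4 at 13.7 TPM, from the eleventh, Foxm1 at 4.57 TPM.

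**Figure D1:**
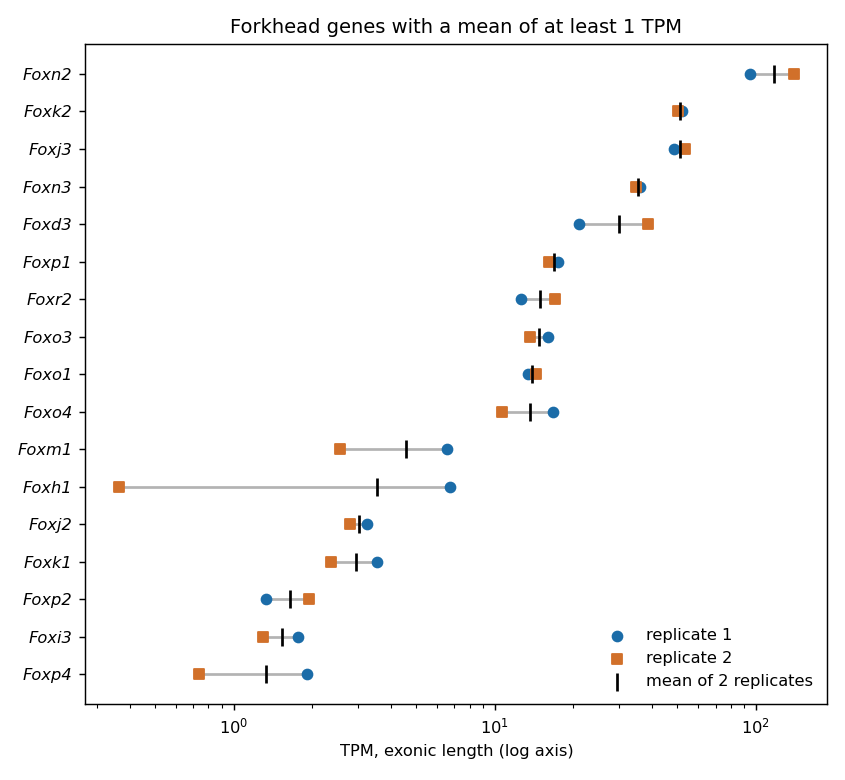
Each row is 1 of 17 forkhead genes with a mean of at least 1 TPM, the horizontal log axis is TPM with exonic length, the circle is replicate 1, the square replicate 2 and the bar their mean. Foxn2 lies highest in both replicates, and Foxh1 has the widest gap, from 6.73 TPM in replicate 1 to 0.364 TPM in replicate 2.

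With exonic length the broadly expressed FOXN and FOXJ genes held 3 of the 4 highest members. Foxn2, a little-studied member of the FOXN subfamily, had 3630 and 4288 counts, or 95.0 and 139.5 TPM (117 ± 31.5, SD, n = 2), and stood at percentile 91.1 of all genes. It alone took 24.7% of the family's counts in replicate 1 and 32.7% in replicate 2. Foxn2 lies on chr17:88440711-88490533 and the lower of its values was above both values of every other member with exonic length. Foxj3, an activator known from spermatogenesis and muscle, had 2079 and 1846 counts, or 48.4 and 53.5 TPM (51.0 ± 3.57). Foxn3, a checkpoint-associated repressor, had 2186 and 1690 counts, or 36.0 and 34.6 TPM (35.3 ± 0.98). Both values of Foxj3 were above both of Foxn3. Foxj2, the closest relative of Foxj3, had only 129 and 89 counts and a mean of 3.02 TPM.

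The FOXK genes, which encode repressors that bind the BAP1 deubiquitinase and the SIN3 complex, were split in level. Foxk2 had 1970 and 1530 counts, or 52.1 and 50.3 TPM (51.2 ± 1.26, SD, n = 2), a narrow range that overlapped that of Foxj3. Foxk1 had 201 and 108 counts and a mean of 2.94 TPM, so that both of its values lay well below those of Foxk2. Of 10 FOXK partners on the list used, 9 reached 1 TPM. The O-GlcNAc transferase gene Ogt was the highest at 436 TPM, Bap1 had 14.7 TPM, and Mbd6 was the 1 partner below 1 TPM, with 9 and 2 counts.

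The 2 members with known roles in the pluripotent epiblast had a mean of at least 1 TPM, Foxd3 in both replicates and Foxh1 through replicate 1 alone. Foxd3 (chr4:99656298-99658671) had 366 and 544 counts, or 21.0 and 38.7 TPM (29.8 ± 12.6, SD, n = 2), with both values above those of Foxp1, the next gene down. Foxh1 (chr15:76668223-76669948) had 69 counts in replicate 1 and 3 in replicate 2, or 6.73 and 0.364 TPM (3.54 ± 4.50). The SD of Foxh1 was above its mean, and its place among the family moved from the eleventh in replicate 1 to position 23 in replicate 2. All 10 genes of the Nodal and FOXH1 pathway that were looked up reached 1 TPM. The co-receptor Tdgf1 was highest at 2283 TPM, the inhibitor Lefty2 had 983 TPM, Lefty1 39.4 TPM, the shared mediator Smad4 151 TPM and the ligand Nodal 10.3 TPM.

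Of the 4 FOXO genes, whose proteins AKT holds out of the nucleus under insulin and growth factor signalling, 3 were detected at similar levels with exonic length. Foxo3 had 886 and 610 counts, or 15.9 and 13.6 TPM. Foxo1 had 873 and 751 counts, or 13.4 and 14.3 TPM, and X-linked Foxo4 had 396 and 204 counts, or 16.7 and 10.7 TPM. The ranges of these 3 genes overlapped on this scale. They did not overlap on the other 2 length scales, which ordered the genes in opposite ways. With exons cut to the deposited spans, a scale added after the data were seen, the means were 28.7 TPM for Foxo3, 19.6 for Foxo1 and 12.3 for Foxo4, and with the whole span 6.25, 7.66 and 35.3 TPM. The fourth member, Foxo6, best known from brain, had 12 and 3 counts and 0.400 TPM. All 16 FOXO regulators on the list reached 1 TPM. They included the 14-3-3 protein gene Ywhae at 1163 TPM, the deubiquitinase gene Usp7 at 575 TPM and the deacetylase gene Sirt1 at 281 TPM. Of the kinase genes, Akt1 had 5.96 TPM and Akt2 7.37 TPM.

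Foxm1, which drives transcription of G2 and mitosis genes, had 230 and 72 counts, or 6.58 and 2.56 TPM (4.57 ± 2.84, SD, n = 2). It shares 2.93% of its span with 4933413G19Rik on the same strand, a gene of 8 and 7 counts. All 14 of its listed target genes reached 1 TPM, and 12 reached 10 TPM. The levels of the targets ran from 4.75 TPM for Plk1 to 1230 TPM for Top2a.

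Of the FOXP repressors, which act as dimers with CtBP and NuRD components, Foxp1 was the main one. It had 1031 and 768 counts, or 17.5 and 16.2 TPM (mean 16.8). Foxp2, known for its part in vocal circuits, had 97 and 114 counts and 1.64 TPM. Foxp4 had 58 and 18 counts, or 1.91 and 0.737 TPM, so that it lay above 1 TPM in replicate 1 and below it in replicate 2. Foxp3, the factor of regulatory T cells, had 2 counts and 1 count. All 8 FOXP partner genes reached 1 TPM, with Hdac2 at 326 TPM and Ctbp2 at 218 TPM the highest.

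Members with tissue-restricted roles were near or below detection on the exonic length scale, with Foxr2 as the exception. Foxr2, an X-linked gene best known as a testis gene and an oncogene, had 305 and 331 counts, or 12.6 and 17.0 TPM (14.8 ± 3.12, SD, n = 2), a level whose range overlapped those of Foxp1 and Foxo3. Its paralogue Foxr1 had 19 and 4 counts (0.810 TPM), and the ovarian factor Foxl2 had 0 counts in both replicates. Foxr1 was above 1 TPM in replicate 1 alone.

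Among the 9 neural and placodal members, 7 had 0 counts in both replicates (Foxb1, Foxb2, Foxd4, Foxe1, Foxe3, Foxi1 and Foxi2). Foxi3, an otic placode factor, had 17 and 10 counts and 1.53 TPM. Of the members named, Foxi3 and Foxp4 stood just inside the limit of 1 TPM. The endoderm pioneer Foxa3, with 14 and 9 counts and 0.823 TPM, and Foxr1 stood just outside it.

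No mesodermal or mesenchymal member reached 1 TPM with exonic length. Of these 9 genes, Foxd2, Foxl1 and Foxs1 had 0 counts in both replicates, and Foxf1 and Foxf2 had at most 3 counts in a replicate. Foxc1, a factor of paraxial mesoderm and eye, had 26 and 25 counts and 0.650 TPM, and its relative Foxc2 had 8 and 8 counts. Foxq1 had 17 and 12 counts and the kidney stroma factor Foxd1 had 5 and 16. The endoderm pioneer Foxa1 had 8 and 3 counts. In the group for cilia and epithelium, Foxn4 had 14 and 5 counts, the ciliogenesis factor Foxj1 had 2 counts and 1 count, and the thymus factor Foxn1 had 1 count in all.

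With exonic length, the order of the 18 members above 1 TPM was free of overlap at 5 places. Of the 17 pairs of neighbours in that order, the replicate ranges of 12 overlapped. The 5 that did not were Foxn2 over Foxk2, Foxj3 over Foxn3, Foxd3 over Foxp1, Foxo4 over Foxm1, and Foxk1 over Foxp2. With exons cut to the deposited spans the order of Foxj3 and Foxn3 turned without overlap, at 43.7 and 48.4 TPM for Foxj3 and 85.7 and 82.6 TPM for Foxn3.

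The order also depended on the gene length behind the TPM. The deposited length is the whole transcribed span, introns included, and a length that long lowers TPM for genes with long introns. With the span, Foxd3 was the highest member at 153 ± 69.9 TPM (SD, n = 2), above Foxn2 at 62.6 TPM, and Foxo4 followed at 35.3 TPM. Foxp1, whose span is 65.0 times its exonic length, went from 16.8 to 1.35 TPM, and Foxn3 went from 35.3 to 5.82 TPM. Foxp2 went from 1.64 to 0.154 TPM. The intron-free mesodermal genes with counts went the other way, with 4.97 TPM for Foxc1, 3.93 for Foxq1, 3.56 for Foxd1 and 2.29 for Foxc2. In all 21 members reached 1 TPM with the span, with Foxr1 added at 1.23 TPM and Foxp2 and Foxp4 (0.479 TPM) lost. For Foxc1, Foxq1, Foxd1, Foxe1 and Foxl2 the annotated exonic length is longer than the deposited span, and their exonic TPM divides by bases over which nothing was counted. The same holds in part for expressed members. Cut to the deposited span, the exonic length goes from 8076 to 3061 bases for Foxn3, from 7405 to 3448 for Foxo3 and from 8665 to 5553 for Foxo1, and Foxn3 moves from 35.3 to 84.2 TPM. Foxd3 has 1 exon and a span that is 1.02 times its exonic length, so its counts per base are about the same on both scales and its TPM differs because the scale of every other gene changes.

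**Figure D2:**
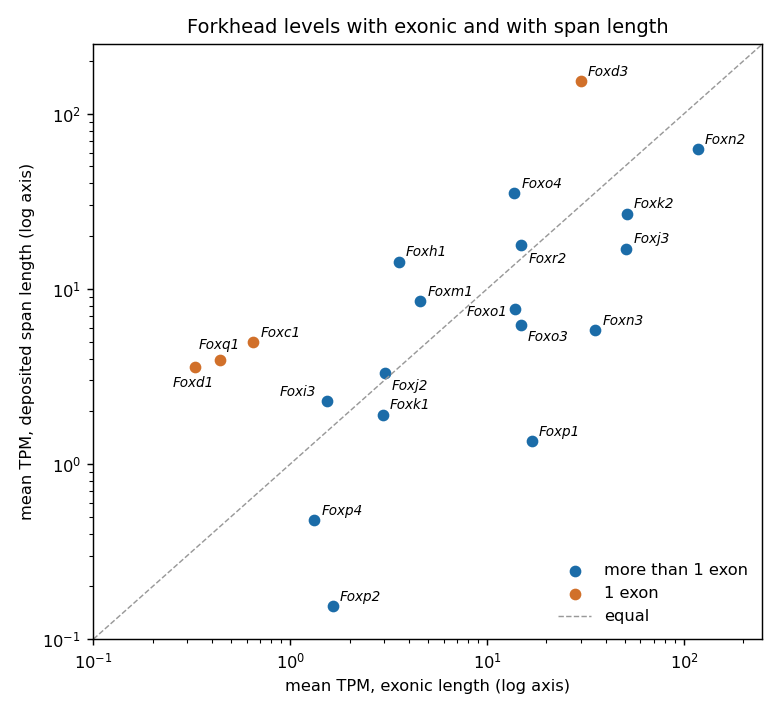
The points are 17 forkhead genes of at least 1 TPM and Foxc1, Foxq1 and Foxd1, with mean TPM by exonic length on the horizontal log axis and mean TPM by the deposited span on the vertical log axis, coloured by whether the gene has 1 exon or more. Foxd3 and the other 1-exon genes drawn lie above the line of equal values, and Foxp1, Foxp2 and Foxn3, which have long introns, lie furthest below it.

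Many forkhead genes have no intron. Of the 43 members, 13 (30.2%) were intron-free, against 5.13% of all genes. With exonic length 1 of the 13, Foxd3, reached 1 TPM, and with the span 5 did (Foxd3, Foxc1, Foxq1, Foxd1 and Foxc2). In both replicates 8 of the 13 had 0 counts. Of the 30 members with introns, 17 reached 1 TPM with exonic length and 3 had 0 counts. Over the table as a whole, with exonic length, 23.0% of 1135 intron-free genes and 57.1% of 21001 genes with introns reached 1 TPM.

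Several members lie next to each other in the genome, and all of these were below 1 TPM with exonic length, as were 25 of the 43 members. Foxq1 and Foxf2 lie 64.8 kb apart on chromosome 13, and Foxc1 lies a further 175 kb on. These 3 genes had between 1 and 26 counts per replicate. On chromosome 4, Foxd2 and Foxe3 lie 16.2 kb apart and both had 0 counts. On chromosome 8, Foxf1 and Foxc2 lie 28.0 kb apart and Foxl1 follows after 8.79 kb, with at most 8 counts per replicate in any of the 3. With the span length the neighbours differed, since Foxc1, Foxq1 and Foxc2 passed 1 TPM while Foxf2 had 0.260 TPM and Foxf1 0.296 TPM.

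Because the study ranks X-linked genes by initial expression, the X-linked members were placed among the 530 X-linked genes with at least 1 TPM, split into low, medium and high classes of equal size at 13.9 and 83.5 TPM. The borders were set here and are not the study's, whose silencing analysis kept only X-linked genes with enough allelic reads. Foxr2 was at rank 351, in the medium class, and Foxo4 at rank 357, in the low class. They traded places between replicates: Foxo4 was medium and Foxr2 low in replicate 1, and the reverse held in replicate 2. With the span length both were medium, at ranks 313 (Foxr2) and 239 (Foxo4) of 532 genes. For both genes, then, the class was not set beyond the spread between replicates. Foxp3, the remaining X-linked member, was below 1 TPM, and 8.62% of its span is shared with Ppp1r3fos on the same strand.

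Promoter windows were matched to 26 members out of 16000 genes with a window. Forkhead windows were CG-rich, with a median of 23.5 CG dinucleotides against 14 over all windows, and 17 of 26 (65.4%) held at least 15, against 49.0% of all. Among members of at least 1 TPM, 8 of 10 held at least 15, close to the 73.1% of all genes at that level. Among members below 1 TPM the share was 9 of 16 (56.3%), against 18.9% of all genes below 1 TPM. Of the 7 matched members with 0 counts, Foxd2 with 26 CG and Foxl2 with 27 held at least 15, against 6.06% of all windows of genes with 0 counts. Foxk2 held 59 CG and Foxd3 25. Foxr2 and Foxn3 were expressed with few CG, 3 and 6.

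**Figure D3:**
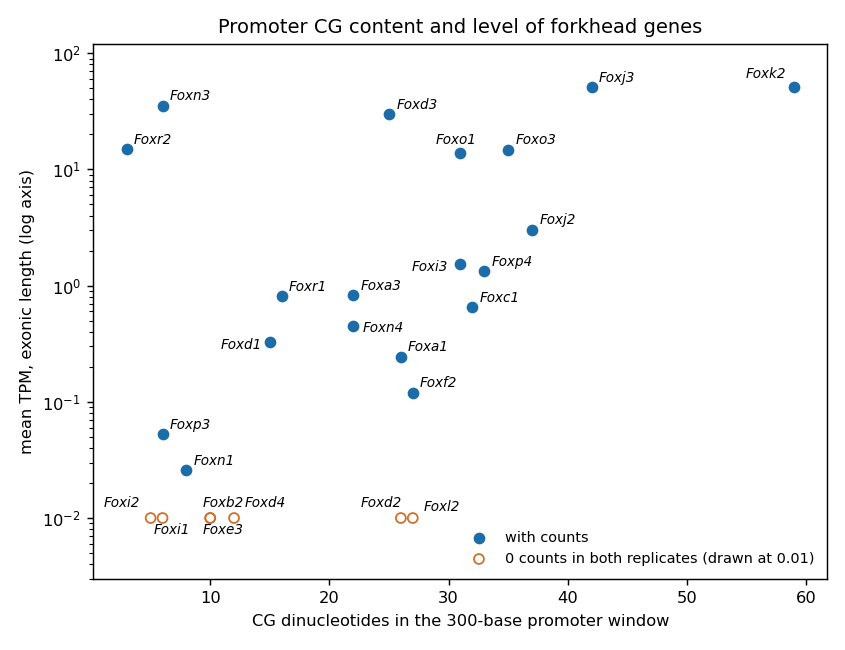
Each point is 1 of the 26 forkhead genes with a promoter window, with the number of CG dinucleotides in 300 bases on the horizontal axis and mean TPM by exonic length on the vertical log axis. Open circles at the bottom are genes with 0 counts, of which Foxd2 and Foxl2 have CG-rich windows, and Foxr2 and Foxn3 sit at the upper left with few CG and levels above 10 TPM.

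The same windows were searched on both strands for 4 short motifs. The GC-box core GGGCGG was in 73.1% of member windows against 48.0% of all windows, and CCAAT in 50.0% against 38.7%. TATAAA was in the windows of 2 members, Foxa3 and Foxp3 (7.69% against 13.0% of all windows). The forkhead core GTAAACA was in 1 member window, that of Foxa1 (3.85% against 2.97%). A match says only that these letters are in the window.

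The 2 replicates were then compared gene by gene, which asks how precisely each forkhead level was measured. Each pair of counts was set against the ratio of library totals by a two-sided exact binomial test with Benjamini-Hochberg adjustment over all genes with at least 10 counts. Of 27 members tested, 5 were higher in replicate 2 (18.5%, against a background of 15.1% of all genes tested) and 10 were lower (37.0%, against 45.7%). Both shares were near the background. Higher were Foxn2, Foxd3, Foxr2, Foxp2 and Foxd1, and lower were Foxk2, Foxn3, Foxp1, Foxo3, Foxo4, Foxm1, Foxh1, Foxk1, Foxp4 and Foxr1. With TMM factors, which set the expected log2 ratio at -0.26 in place of 0 for every gene, 9 members were higher (against 28.8% of all genes) and 6 lower (against 28.9%). After a trend on GC content was taken out, 8 were higher (against 24.0%) and 2 lower (against 21.6%), the latter being Foxm1 and Foxh1.

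The shift of the family as a whole was small and its sign was set by the scaling. Over the 14 members that had 50 counts or more in both replicates, the median log2 ratio of replicate 2 over replicate 1 was -0.14, against -0.17 over 9736 genes. With TMM factors it was 0.11 against 0.08, and with the GC trend removed 0.28 against 0.05. Over all 43 members the median GC content of the longest transcript was 55.9%, against 48.7% over all genes. Across the 14 members the ratio was lower at higher GC content (Spearman's rho -0.49, and -0.86 without Foxd3). These are 14 genes from the same 2 libraries, and the value is a description.

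**Figure D4:**
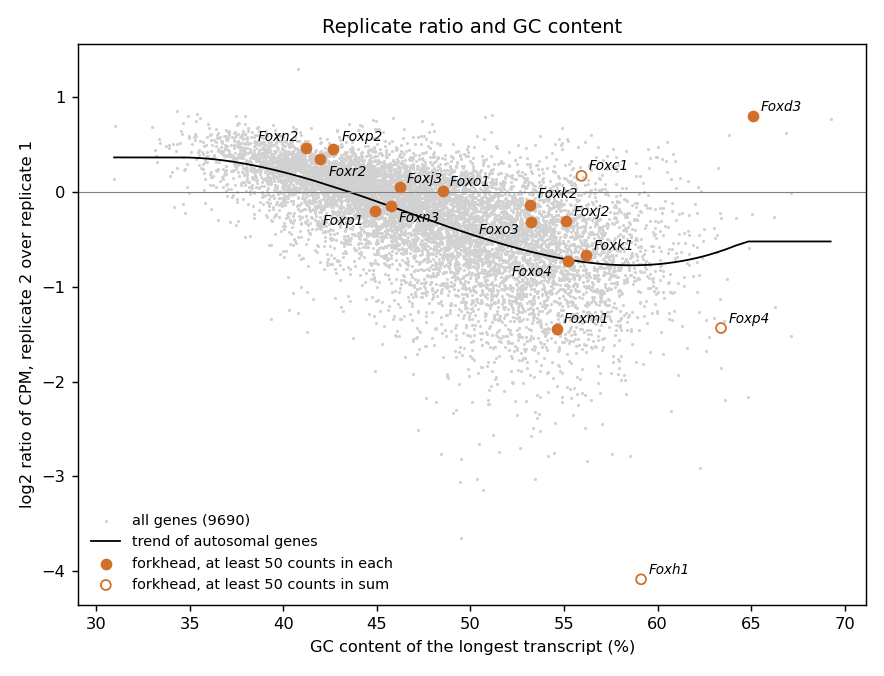
Grey points are genes that had 50 counts or more in both replicates, with GC content of the longest transcript (%) on the horizontal axis and the log2 CPM ratio of replicate 2 over replicate 1 on the vertical axis, and the line is the trend of autosomal genes. Forkhead genes with at least 50 counts in sum are orange, open where 1 or both replicates are below 50 counts. Foxd3 lies far above the trend while Foxm1, Foxp4 and Foxh1 lie below.

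Foxh1 and Foxd3 differed between replicates in opposite directions. Foxh1, with its 69 and 3 counts, was lower in replicate 2 to 0.0509 of its level in replicate 1 (95% exact interval 0.0102 to 0.155, adjusted p = 1.23e-14, exact binomial test). Its log2 ratio was -4.09, and -3.31 with the GC trend at its 59.1% GC taken out. On the Nodal pathway list, 6 of 10 genes were lower and 3 higher in replicate 2 by the same test, against 45.7% and 15.1% of all genes tested. With the GC trend removed 2 were lower and 5 higher, against 21.6% and 24.0% of all genes tested. Lefty1 had 690 and 216 counts while Lefty2 had 16529 and 16084.

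Foxd3 was 1.74-fold higher in replicate 2 (95% exact interval 1.52 to 1.99, adjusted p = 8.68e-16, exact binomial test), although its transcript is among the most GC-rich, at 65.1%. Of 41 genes with at least 62% GC and 50 counts in each replicate, a limit set after the values were seen, 6 were higher in replicate 2 and Foxd3 was the highest, against a median log2 ratio of -0.59. With the GC trend removed its log2 ratio went from 0.80 to 1.32. A share of 2.59% of its 50-base words also occurs in other transcripts, Foxd4 among them, and Foxd4 itself had 0 counts.

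Foxm1 was lower in replicate 2, at 0.366 of its level in replicate 1 (95% exact interval 0.277 to 0.479, adjusted p = 8.57e-15, exact binomial test), and its log2 ratio of -1.44 was -1.19 with TMM factors and -0.75 with the GC trend removed, lower by the test in both. Of its 14 listed targets, 10 were lower and 3 higher in replicate 2 by the same test, against 45.7% and 15.1% of all genes tested, with a median log2 ratio of -0.58. By library totals, lower were among others Plk1 with 131 and 21 counts, Aurka with 1074 and 273, Kif20a with 1656 and 567 and Cdc25b with 256 and 78. Higher by library totals were Ccnb1, Cenpf and Bub1, with log2 ratios of 0.33, 0.17 and 0.18. With the GC trend removed 8 were lower and 3 higher, against 21.6% and 24.0% of all genes tested, and Ccnb2, lower by library totals, took the place of Bub1 among those higher. Whether Foxm1 and these targets share a cause was not tested.

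Foxn2 was 1.38-fold higher in replicate 2 (95% exact interval 1.32 to 1.44, adjusted p = 1.70e-45, exact binomial test) and has the lowest GC content of the family, 41.2%. The members next to it in GC content, Foxr2 at 42.0% and Foxp2 at 42.6%, were also higher, Foxr2 by 1.27-fold (1.08 to 1.49) and Foxp2 by 1.37-fold (1.04 to 1.82). With the GC trend removed the folds were 1.25 for Foxn2, 1.18 for Foxr2 and 1.32 for Foxp2. Of these, Foxn2, with the most counts, passed the test, and Foxr2 and Foxp2 did not (adjusted p = 0.073 and 0.091, exact binomial test). Foxo4, at 55.2% GC, was lower to 0.603 of its level (0.506 to 0.715), and with the GC trend removed its log2 ratio was -0.02.

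Scaled by library totals, Foxj3 and Foxo1 had nearly equal CPM in both replicates, with ratios of 1.04 (95% exact interval 0.975 to 1.11) and 1.01 (0.911 to 1.11). Both were called higher in replicate 2 with TMM factors and with the GC trend removed, where the folds were 1.18 and 1.28. Foxk2 and Foxn3 were lower in replicate 2 by library totals, to 0.908 (0.849 to 0.972) and 0.904 (0.848 to 0.964). With TMM factors the direction of both turned, to log2 ratios of 0.12 and 0.11 (adjusted p = 0.031 for each, exact binomial test). With the GC trend removed Foxk2 was 1.40-fold higher (adjusted p = 7.58e-22, exact binomial test) and Foxn3 was at 1.01. The call of Foxo3 also turned. By library totals it was lower, to 0.805 (0.725 to 0.894). With the GC trend removed Foxo3 was 1.25-fold higher (adjusted p = 1.19e-04, exact binomial test), and with TMM factors it was not called. At low counts the intervals were wide. Foxi3 had a ratio of 0.688 (0.282 to 1.59), and for Foxd1, with its 5 and 16 counts, the interval ran from 1.31 to 13.1.

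By library totals, where 15.1% of all genes tested were higher and 45.7% lower, the partner and regulator lists held calls in both directions. Of 16 FOXO regulators, 7 were higher and 6 lower in replicate 2, and of 10 FOXK partners 3 were higher and 6 lower. Of 8 FOXP partners, 1 was higher (Ctbp2) and 7 lower, and this list has a median GC content of 53.7% and a median log2 ratio of -0.54. Of the ES cell markers, 1 was higher and 7 were lower, with Dppa5a at 2915 and 298 counts. With the GC trend removed, where 24.0% of all genes tested were higher and 21.6% lower, the counts higher and lower were 8 and 5 for FOXO regulators, 4 and 4 for FOXK partners, 2 and 4 for FOXP partners and 3 and 3 for ES cell markers.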

How the data were processed

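Polyadenylated RNA of 2 replicates was sequenced with a stranded kit. The deposited counts were made by the authors with featureCounts (1.5.2, per the file headers) as fragments per gene over transcript spans on mm10, introns included. Bowtie2 (2.3.2) and STAR (2.4.2a) are named in the submitters' processing notes. The count columns lack a letter b of the sample descriptions and were matched by the rest of the name. Deposited starts of the 13 plus-strand members with a promoter window were 1 base below the RefSeq start.

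Computed here were CPM, and TPM with exonic lengths (union of exons, GENCODE M21 basic annotation), matched for 98.1% of genes, of which 878 by an older symbol. The study used TPM averaged over replicates, and so did this work. Replicates were compared by exact binomial tests (scipy 1.17.1) at an adjusted p of 0.05, with 0.5 counts added for log2 ratios. TMM factors came from edgeR (4.0.16, R 4.3.3), and the GC trend was a polynomial of degree 3 on autosomal genes. The test was checked on simulated data. Alternatives were gene length, detection limit, count minimum, scaling and leaving out a replicate.

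Members, roles and lists were chosen with earlier results of these data known. Members with at least 1 TPM are named with both values, those below with at least 10 counts by their counts, and those with 0 counts by name. Members without a promoter window include Foxb1, Foxc2, Foxe1, Foxf1, Foxh1, Foxj1, Foxk1, Foxl1, Foxm1, Foxn2, Foxo4, Foxo6, Foxp1, Foxp2, Foxq1 and Foxs1. Promoters are from RefSeq (GRCm38.p6). Values of 1 counted member and of 1 further forkhead gene are not reported here.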

Additional observations from a re-analysis of the deposited data

How the results depend on the processing

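No paired analysis was possible because only 1 group exists. The family sum of 383 TPM was 633 as CPM and 423 with exons cut to the deposited spans, an alternative chosen after seeing the data, and 360 to 406 with 1 replicate left out. The count of 18 members at 1 TPM was 28 at 0.1 TPM, 10 at 5 TPM and 16 to 18 with 1 replicate left out. Members higher in replicate 2 went from 5 to 9 with TMM factors and 8 with the GC trend, and members lower from 10 to 6 and 2. The median log2 ratio of -0.14 reversed to 0.11 with TMM factors and 0.28 with the GC trend removed. TMM moves every ratio by the same amount and the GC trend by an amount set by GC content, and the cause of the other changes was not tested. Of 54 values of single genes with another length or with none (CPM, a different unit), 21 stayed within the replicate spread and 33 did not. With exons cut to the deposited spans, Foxn3 had 84.2 TPM and Foxo3 28.7 TPM. Foxn2 had the highest mean there, 106 TPM, but its range overlapped that of Foxn3, with 85.6 TPM against 85.7 TPM in replicate 1. Depth limits the members below 10 counts, for which detection cannot be separated from background.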
